A study of Homo sapiens with 9 samples.

Results

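The comparison set 6 libraries of ES-2 cells carrying an overexpression construct against 3 libraries of ES-2 cells carrying the empty vector, and asked what expression of OTUB2 and of SNX29P2 had in common. It used all 9 libraries of the series. Of the 6 overexpression libraries, 3 had the genotype OTUB2 overexpression and 3 had SNX29P2 overexpression. ES-2 is an established human line from an ovarian carcinoma; per the labels, cells of every group grew in RPMI-1640 with 10% serum and received no treatment. OTUB2 encodes an enzyme that removes ubiquitin from proteins. SNX29P2 is by its name and annotation a pseudogene of the sorting nexin SNX29. The promoter that drove each construct, and whether a line was 1 clone or a pool, are not stated in the labels, which also do not name separate cultures for the 3 libraries of each group. The p-values therefore measure only the spread between these libraries, which may be technical.

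From the 32997 genes in the table, 16529 were tested, namely those with at least 0.5 RPKM (reads scaled to gene length and to the depth of the library) in at least 3 libraries. The 2 overexpressed genes and their related entries SNX29P1 and RP11-231C14.7 were left out of the test, 4 in all. Both overexpressed genes followed the labels. OTUB2 was at 1.31, 1.16 and 1.04 RPKM in the vector libraries, 37.6, 42.6 and 38.4 in the OTUB2 libraries and 1.05, 1.58 and 1.08 in the SNX29P2 libraries. SNX29P2 was at 41.0, 55.1 and 47.6 RPKM in the libraries named for it and at most 0.0665 elsewhere. For each other gene, the joint difference is the mean of the OTUB2 and SNX29P2 effects minus the vector, on the log2(RPKM + 0.1) scale, with the number in the library name (1, 2 or 3) as a block. Negative values mean lower in the overexpression libraries. A gene was called where its limma p, adjusted by Benjamini-Hochberg over all 16529 genes, was under 0.05.

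Several of the genes below belong to programmes with well-known roles in tumours. CA9 encodes carbonic anhydrase IX, a membrane enzyme that hydrates carbon dioxide outside the cell and whose transcription is a classical read-out of hypoxia-inducible factor (HIF). The extracellular matrix is built from collagens, fibronectin and small proteoglycans such as biglycan, and tumour cells both secrete it and bind it through integrins. IL-11 and IL-24 are secreted cytokines of the IL-6 and IL-10 families.

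The libraries held 38504854 to 48551215 reads in genes. Libraries of a group correlated at 0.971 to 0.981 across genes (log2 scale) and their counts differed by a chi-square of 11.04 to 35.9 per gene, so none was a copy of another. The median SE of a joint log2 difference was 0.0856, so the 95% interval of a typical gene spanned 0.20 to either side. KRT8, KRT18 and VIM were expressed in every library, while the epithelial adhesion gene EPCAM and the clear cell marker NAPSA were at or near 0 (at most 0.0192 and 0.0270 RPKM). The summed level of 4 mesenchymal markers, nearly all of it VIM and FN1, was 1241 to 1301 RPKM in the vector, 1078 to 1188 in the OTUB2 and 1103 to 1146 in the SNX29P2 libraries, and 2 of the 4 were below 0 in the joint difference and 2 (CDH2 and ZEB1) above. In bulk RNA, fewer cells of a type and less RNA per cell cannot be told apart. 1 library stood apart from the others. OTUB2 replicate 1 had the highest value of all 5 leukocyte markers that were matched, with LYZ at 4.22 RPKM (at most 0.213 in the other 8), PTPRC at 0.332 (at most 0.00506), CD3E at 0.282 (0 in the other 8) and CD14 at 0.475 (at most 0.0694). These genes encode lysozyme, CD45, a CD3 chain of the T cell receptor complex and a monocyte receptor. In the 8 other libraries PTPRC and CD3E were at or near 0. CD68, the remaining marker, was expressed in every library, at 35.3 RPKM in OTUB2 replicate 1 and 28.6 to 33.3 in the other 8. Values without this library are given below for every called gene.

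The joint contrast called 11 genes, which is 0.0665% of those tested: 10 were lower in the overexpression libraries (0.0605%) and 1 was higher (0.00605%) (limma, Benjamini-Hochberg adjusted). The lower genes were CA9, BGN, FSTL3, GAA, COL6A2, PLTP, IL11, COL6A1, JUNB and the clone-named transcript RP11-37C7.1, and the higher gene was IL24. At an unadjusted p under 0.05, limma counted 2459 genes (14.9%), 1199 lower (7.25%) and 1260 higher (7.62%). Without the block the same model called 2 genes (0.0121%), CA9 and BGN, both lower. The adjusted p of the other called genes was then 0.0645 (GAA) to 0.729 (IL11) by limma. A second test, limma voom on whole reads recovered from the RPKM values with the same block, called 206 genes (1.25%), of which 146 were lower (0.883%) and 60 higher (0.363%). All 11 genes were among them. In 404 genes (2.44%) all 6 overexpression libraries lay below all 3 vector libraries, and in 407 (2.46%) all 6 lay above, so separation of the groups was similarly frequent in both directions over the transcriptome. Among the 11 called genes, 7 separated the groups in this way.

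**Figure D1:**
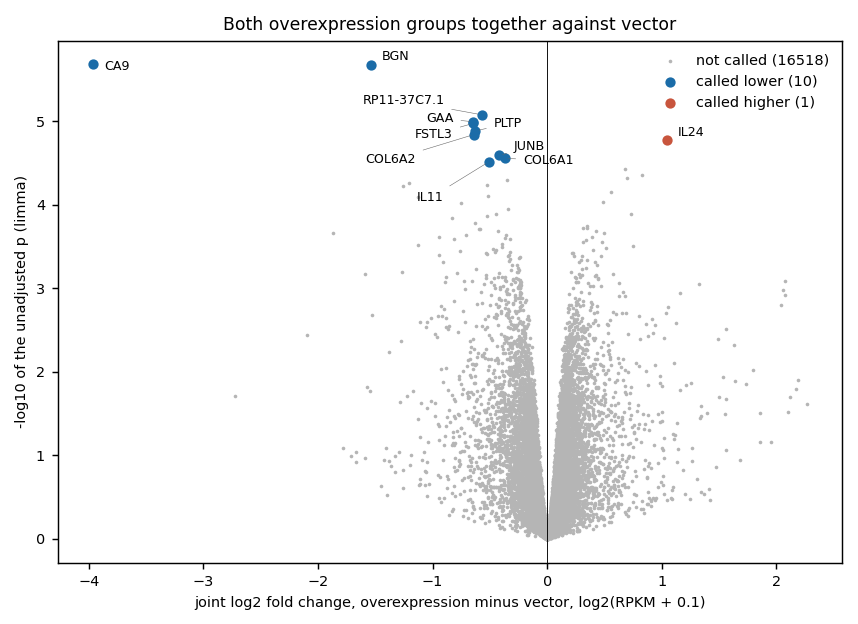
Joint log2 difference of both overexpression groups from the vector (horizontal axis) against the unadjusted p on a −log10 scale (vertical axis), 1 point per gene tested, with the 11 called genes named. CA9 at −3.96 and BGN at −1.54 lay far to the left, and IL24 at 1.05 was the only called gene on the right.

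CA9 had the largest difference of the called genes. It was at 3.96, 6.75 and 2.29 RPKM in the vector libraries, 0.198, 0.148 and 0.0900 in the OTUB2 libraries and 0.104, 0.330 and 0.152 in the SNX29P2 libraries. Behind these values stood 158 to 434 reads in each vector library and 6 to 22 in each overexpression library. All 6 overexpression libraries thus lay far below the lowest vector library, although the vector libraries themselves were widely spread. CA9 fell by 3.96 on the log2 scale (SE 0.284, adjusted p = 0.0176, limma), a 15.6-fold difference, and by 4.68 on the scale of the reads. It reached the 0.5 RPKM of the filter only in the vector libraries, so its entry to the test depended on the group where it was high. With no filter its adjusted p was 0.0507 (limma). The OTUB2 effect was −4.07 and the SNX29P2 effect −3.85. CA9 lies on chromosome 9 at 35673856 to 35681159 (GRCh38, forward strand). Of its 1670 exonic bases, 643 are shared with ARHGEF39 on the opposite strand, and no source used here says whether counting used strand. ARHGEF39 itself was at a mean of 3.65 RPKM in the vector, with a joint log2 difference of −0.07 (adjusted p = 0.687, limma).

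The 200 bases ahead of the start site are shown for 4 called genes to let the region be compared between a HIF target (CA9), the called gene with the next largest difference (BGN) and the cytokine genes that moved in opposite directions (IL11 down, IL24 up). They come from RefSeq on GRCh38.p14, are written 5′ to 3′ on the gene's own strand, and end at the base before the RefSeq start. Capitals mark the core of the hypoxia response element, ACGTG, and the AP-1 site, TGACTCA, searched on both strands, so that CACGT and TGAGTCA are the same motifs read from the other strand. The CA9 stretch is chr9:35673728-35673927, forward strand, and the gene as the table defines it begins within it. The BGN stretch is chrX:153494780-153494979, forward strand, where the same holds. The IL11 stretch is chr19:55370464-55370663, reverse strand, and the IL24 stretch is chr1:206897243-206897442, forward strand.
CA9: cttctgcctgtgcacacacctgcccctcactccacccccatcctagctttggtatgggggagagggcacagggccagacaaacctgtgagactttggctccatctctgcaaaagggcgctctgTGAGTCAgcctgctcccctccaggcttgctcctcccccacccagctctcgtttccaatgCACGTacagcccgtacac
BGN: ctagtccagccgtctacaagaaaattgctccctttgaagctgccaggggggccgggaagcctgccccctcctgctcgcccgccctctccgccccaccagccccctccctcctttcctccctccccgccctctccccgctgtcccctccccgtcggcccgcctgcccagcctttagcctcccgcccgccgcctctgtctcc
IL11: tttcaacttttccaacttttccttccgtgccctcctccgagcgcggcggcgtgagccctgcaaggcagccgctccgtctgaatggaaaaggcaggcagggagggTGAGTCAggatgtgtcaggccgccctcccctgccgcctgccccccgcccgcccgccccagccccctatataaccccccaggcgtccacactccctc
IL24: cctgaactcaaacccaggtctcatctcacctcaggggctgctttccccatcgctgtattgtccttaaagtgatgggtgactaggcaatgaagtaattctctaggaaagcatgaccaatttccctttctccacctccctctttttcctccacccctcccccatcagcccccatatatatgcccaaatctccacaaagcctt

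In CA9 the ACGTG core lay 18 bases and the AP-1 site 77 bases before the RefSeq start. In IL11 an AP-1 site lay 96 bases before the start, and neither motif was found in the stretches of BGN and IL24. Over windows of 300 bases, from 250 before to 50 after the start, 9 of the 11 called genes had an entry. ACGTG was present in 3 of these 9 (CA9, GAA and PLTP) and in 21.4% of all 34943 windows. TGACTCA was present in 2 of the 9 (CA9 and IL11) and in 4.96% of all windows. A match is a run of letters and not an occupied site.

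Matrix genes were the second group among the lower genes. BGN, which encodes the small proteoglycan biglycan, was at 6.27, 7.33 and 5.13 RPKM in the vector libraries, 2.42, 2.13 and 2.23 in the OTUB2 libraries and 1.73, 1.98 and 1.94 in the SNX29P2 libraries. The overexpression libraries were tightly grouped, and the highest of them, at 2.42, was well under the lowest vector library. BGN fell by 1.54 on the log2 scale (SE 0.111, adjusted p = 0.0176, limma), 2.91-fold. Both genes of collagen VI on chromosome 21, whose products form the microfibrils near the cell surface, were called. COL6A2 was at 108, 125 and 103 RPKM in the vector libraries, 65.1, 82.8 and 78.2 in the OTUB2 libraries and 59.99, 74.5 and 72.4 in the SNX29P2 libraries, with no overlap. COL6A1 was at 65.7, 85.2 and 66.9 RPKM in the vector libraries, 49.8, 66.8 and 55.7 under OTUB2, and 49.2, 62.8 and 52.7 under SNX29P2, so the groups overlapped at OTUB2 replicate 2. The joint log2 differences were −0.64 for COL6A2 (SE 0.0611, adjusted p = 0.0339) and −0.37 for COL6A1 (SE 0.0388, adjusted p = 0.0456), both by limma. Without the block their adjusted p was 0.234 and 0.409 (limma). The genes are neighbours, COL6A1 at 45981737 to 46005050 and COL6A2 at 46098097 to 46132849, with 93047 bases between them.

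The remaining called genes with secreted products were FSTL3, PLTP and IL11. FSTL3, a secreted binder and inhibitor of activins, was at 9.11, 15.9 and 9.57 RPKM in the vector libraries, 6.15, 9.17 and 6.46 under OTUB2, and 6.11, 9.02 and 6.32 under SNX29P2. The library numbered 2 was the highest in every group, and within each number both overexpression libraries lay below the vector. FSTL3 fell by 0.65 on the log2 scale (SE 0.0590, adjusted p = 0.0339, limma). PLTP, the phospholipid transfer protein of plasma lipoproteins, was at 31.1, 33.4 and 26.0 RPKM in the vector libraries and between 18.3 and 21.2 in all 6 overexpression libraries. It fell by 0.63 (SE 0.0588, adjusted p = 0.0339, limma), and 200 of its exonic bases are shared with CTSA on the opposite strand, which stood at −0.06. IL11 was at 13.8, 29.2 and 13.6 RPKM in the vector libraries, 9.70, 21.6 and 9.94 under OTUB2, and 8.54, 19.7 and 10.1 under SNX29P2. As for FSTL3, the libraries numbered 2 stood above the rest in all groups, and both calls rested on the block. IL11 fell by 0.51 (SE 0.0542, adjusted p = 0.0456, limma). When the block was left out, the adjusted p was 0.729 for IL11 and 0.402 for FSTL3 (limma).

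GAA, JUNB and RP11-37C7.1 made up the rest of the lower genes. GAA, the lysosomal enzyme that breaks down glycogen, was at 18.4, 19.2 and 15.2 RPKM in the vector libraries, 12.1, 12.5 and 11.5 under OTUB2, and 10.6, 10.5 and 10.2 under SNX29P2, without overlap. It fell by 0.64 (SE 0.0584, adjusted p = 0.0339, limma). JUNB, a subunit of the AP-1 transcription factor, was at 13.6, 20.6 and 14.5 RPKM in the vector libraries, 10.1, 14.9 and 11.2 under OTUB2, and 10.2, 14.6 and 11.4 under SNX29P2, again highest in the libraries numbered 2. It fell by 0.42 (SE 0.0435, adjusted p = 0.0456, limma), with an adjusted p of 0.508 when the block was left out. JUNB shares 259 exonic bases with HOOK2 on the opposite strand, which stood at −0.48 (adjusted p = 0.0989, limma), so the reads of these genes cannot be told apart there. RP11-37C7.1, named here because it was called although it lacks a gene symbol, was at 15.3, 16.8 and 14.99 RPKM in the vector libraries and between 9.45 and 12.5 in the 6 overexpression libraries, and fell by 0.57 (SE 0.0503, adjusted p = 0.0339, limma). It is 318 bases long and shares 185 of them with FSIP1 and 133 with GPR176 on the same strand, so its reads may belong to either.

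IL24 was the only gene called higher. It was at 3.34, 4.42 and 2.86 RPKM in the vector libraries, 9.398, 8.07 and 5.61 under OTUB2, and 7.88, 7.79 and 5.84 under SNX29P2. Every overexpression library lay above the highest vector library. IL24 rose by 1.05 on the log2 scale (SE 0.102, adjusted p = 0.0342, limma), 2.07-fold, with effects of 1.09 for OTUB2 and 1.01 for SNX29P2. Without the block its adjusted p was 0.282 (limma). IL24 and IL11, both in the list of NF-kB targets, thus moved in opposite directions.

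**Figure D2:**
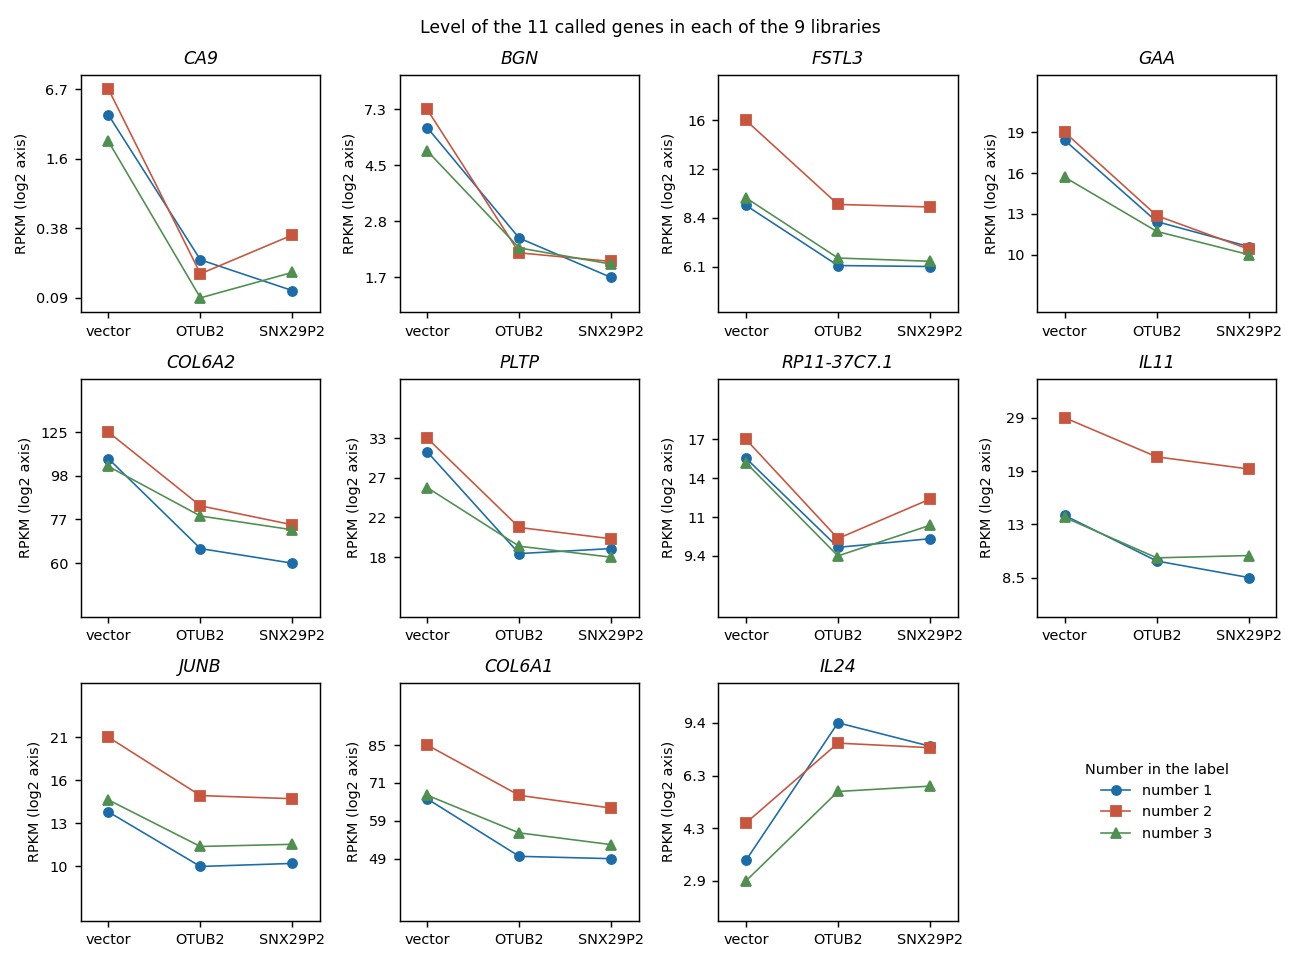
RPKM of the 11 called genes in each of the 9 libraries (logarithmic vertical axis), with vector, OTUB2 and SNX29P2 libraries side by side and numbered 1 to 3. CA9 spans 0.0900 to 6.75 RPKM, and FSTL3, IL11 and JUNB are highest in the library numbered 2 of each group.

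The called genes are spread over the genome (GRCh38). IL24 lies on chromosome 1 at 206897443 to 206904139, GAA on chromosome 17 at 80101556 to 80119879, PLTP on chromosome 20 at 45898621 to 45912155 and BGN on chromosome X at 153494939 to 153509554. Chromosome 19 carries FSTL3 at 676365 to 683399, JUNB at 12791496 to 12793315 and IL11 at 55364389 to 55370463.

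All 11 called genes had the same sign in each of the 3 numbers taken alone. They were chosen by a fit to these same libraries with the number as block, so this is a description and not separate support. For CA9 the differences within numbers 1, 2 and 3 were −4.04, −4.39 and −3.45. Leaving out OTUB2 replicate 1, the library with leukocyte transcripts, limma called 0 genes (1870 at an unadjusted p under 0.05) and voom called 39. The size of the differences held without it: CA9 was at −4.09, BGN at −1.58, FSTL3 at −0.65, GAA at −0.63, COL6A2 at −0.62, PLTP at −0.60, RP11-37C7.1 at −0.59, IL11 at −0.51, JUNB at −0.41, COL6A1 at −0.36 and IL24 at 0.98. Their adjusted p was then 0.0748 to 0.180 (limma). In the voom fit without it, 9 of the 11 genes were called, with an adjusted p of 0.000486 for CA9, 0.00181 for BGN and 0.00735 for IL24, and JUNB and RP11-37C7.1 were not (0.0570 and 0.107).

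Neither overexpression group called a gene alone in this model, and no difference between them was called. For OTUB2 against vector limma called 0 genes (1933, or 11.7%, at an unadjusted p under 0.05) and voom called 64 (0.387%). For SNX29P2 against vector limma called 0 genes (2269, or 13.7%) and voom called 58 (0.351%). The 2 contrasts share the vector libraries. For OTUB2 against SNX29P2, both limma and voom called 0 genes (774, or 4.68%, at an unadjusted p under 0.05 by limma). A p that misses the threshold does not show that the constructs act alike, and the intervals give the room that is left. OTUB2 minus SNX29P2 was −0.22 for CA9 (95% interval −0.99 to 0.55) and 0.25 for BGN (−0.05 to 0.56). For GAA it was 0.20 (0.04 to 0.36), with an adjusted p of 0.920 (limma), and GAA was lower in each SNX29P2 library than in any OTUB2 library.

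The functions of the lower and higher genes were read at a wider threshold, an adjusted p under 0.1 (limma), chosen after the calls were seen. At this threshold 47 genes were lower (0.284%) and 24 higher (0.145%). The places of their products were assigned by hand with the calls known, and carry no test. Of the 37 lower genes with an assigned product, 12 were secreted or matrix proteins, 10 were at the cell surface, 5 were transcription factors, 3 were lysosomal and 7 were elsewhere in the cell. Of the 17 higher ones, 3 were secreted, 4 were at the surface, 2 were nuclear and 8 were elsewhere. Among the 10 called lower genes, 6 had secreted or matrix products. Places were not assigned for the other genes tested, so these counts have no share over all genes beside them. They do not show that any place was more frequent than in the transcriptome.

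The lists below were compiled with earlier results of these data known. Their counts are to be read beside those for all genes tested, of which 7701 were below 0 and 8828 above, with a median of 0.01. At an unadjusted p under 0.05 (limma), 7.25% of all genes tested were lower and 7.62% higher. Voom called 0.883% of all genes tested lower and 0.363% higher. Of 28 genes for matrix proteoglycans and collagens, 23 were below 0, the median was −0.21, and 3 were called lower (BGN, COL6A2 and COL6A1) and none higher. The voom test called 8 of them lower, adding ABI3BP (limma log2 difference −1.27, adjusted p = 0.105), AEBP1 (−0.52, adjusted p = 0.0822), FN1 for fibronectin (−0.42, adjusted p = 0.122), COL1A1 (−0.33, adjusted p = 0.0989) and TGFBI (−0.27, adjusted p = 0.105). ABI3BP was at 0.854, 0.878 and 0.626 RPKM in the vector libraries and between 0.236 and 0.299 in the 6 others. It reached the 0.5 RPKM of the filter only in the vector libraries, as did CA9. The mean difference of the list was −0.40, −0.28 and −0.14 within numbers 1, 2 and 3. Of the stromal fibroblast markers, COL1A1 made up nearly all of the summed level, which was 65.3 to 86.8 RPKM in the vector, 49.99 to 69.9 in the OTUB2 and 46.3 to 65.6 in the SNX29P2 libraries. The defining fibroblast genes COL1A2, COL3A1 and PDGFRB were at or near 0 in all 9 libraries (at most 0.0168, 0.00686 and 0.0525 RPKM). MMP3, a secreted protease that degrades matrix, stood on the other side at 6.41, 6.84 and 7.39 RPKM in the vector libraries, 83.7, 19.8 and 17.6 under OTUB2, and 63.8, 19.1 and 16.6 under SNX29P2. All 6 overexpression libraries were above the vector, and those numbered 1 by the widest margin. Its log2 difference of 2.06 did not pass (adjusted p = 0.107, limma) but passed in voom (adjusted p = 0.00585). The list of matrix proteases and inhibitors that holds MMP3 had 11 of 16 members below 0, a median of −0.11 and 0 called by limma. At an unadjusted p under 0.05, limma counted 5 of them lower and 1 higher. Voom called 1 lower and 1 higher.

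Targets of HIF, the factor that turns on genes in low oxygen, were mostly below 0: 24 of 29, with a median of −0.11 and 1 called, CA9. Voom called 3 lower, CA9 with ALDOC, a glycolytic aldolase, and DDIT4, an inhibitor of mTORC1 signalling. ALDOC was at 2.02, 3.35 and 1.47 RPKM in the vector libraries and between 0.757 and 1.17 in the 6 others (log2 difference −1.13, adjusted p = 0.0985, limma). DDIT4 was at −0.95 (adjusted p = 0.0939, limma), with overlap between the groups. Members differed far less than CA9 did, and glycolysis genes had a median of −0.03 with 0 of 19 called by limma (6 lower at an unadjusted p under 0.05) and 1 by voom. The mean of the HIF list was −0.52, −0.24 and −0.16 within numbers 1, 2 and 3, with 25, 14 and 14 of the 29 members lower. Without CA9 these means were −0.39, −0.09 and −0.05. The list stood highest in vector replicate 1, at 0.38 above its mean over all libraries, and without that library the median was −0.02.

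Among 19 targets of NF-kB, a factor that drives inflammatory genes, 16 were below 0, the median was −0.23, and IL11 was called lower and IL24 higher. Voom called 5 lower, adding PTGS2, ICAM1, RELB and LIF. PTGS2, the inducible cyclooxygenase, was at 1.99, 3.27 and 1.91 RPKM in the vector libraries and between 0.993 and 1.67 in the 6 others (−0.83, adjusted p = 0.0840, limma). ICAM1, an adhesion molecule for leukocytes, was at −0.58 (adjusted p = 0.0935, limma), with overlap. Of 22 immediate early genes, 16 were below 0 with a median of −0.10, JUNB was called, and EGR1 was at −0.81 (adjusted p = 0.0939, limma). Of 13 genes for antigen presentation by MHC class I, 12 were below 0 with a median of −0.15 and 0 called by limma (6 lower and 0 higher at an unadjusted p under 0.05) and 2 called lower by voom.

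Other lists held called genes beside medians nearer to that of all genes. Lysosomal genes had 19 of 32 below 0 and a median of −0.06, with 9 lower and 2 higher at an unadjusted p under 0.05 (limma), GAA called and TPP1, GRN and CTSB added by voom. The TGF-beta, activin and BMP list had 11 of 21 below 0 and a median of −0.00, with FSTL3 called. Secreted factors had 9 of 19 below 0 and a median of 0.03, with PLTP and IL11 called lower and IL24 higher. KISS1, a secreted peptide precursor in that list, was at 5.85, 7.99 and 5.53 RPKM in the vector libraries and between 1.40 and 3.18 in the 6 others (−1.59, adjusted p = 0.105 by limma and 0.0168 by voom). QPRT, an enzyme of NAD synthesis, was at 4.47, 4.73 and 2.28 RPKM in the vector libraries and between 1.14 and 1.80 in the 6 others (−1.20, adjusted p = 0.0545, limma). SEZ6L2, which lies 172460 bases from QPRT on chromosome 16, was at −1.13 (adjusted p = 0.0636, limma). AC009133.22, which shares 572 exonic bases with QPRT, was at −1.26.

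Beside IL24, the higher genes with the smallest p were SNORD54 (0.68, adjusted p = 0.0506), CGB8 (0.83, 0.0545), SPP1 (0.70, 0.0545) and EVI2A (0.56, 0.0611), all by limma. SPP1 encodes osteopontin, a secreted phosphoprotein, and was at 5.51, 4.30 and 4.44 RPKM in the vector libraries, 10.4, 7.02 and 7.57 under OTUB2, and 10.2, 6.39 and 5.94 under SNX29P2. CGB8 encodes a beta subunit of chorionic gonadotropin and belongs to a family of near-identical copies, so its reads may be shared among them. SNORD54 lies wholly within RPS20 and is 67 bases long. SPP1 and EVI2A did not overlap with the vector, and their highest values were in the overexpression libraries numbered 1.

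Some lists stood above 0 in nearly every member although no member was called by limma. All 30 genes of G2/M and mitosis were above 0, with a median of 0.28 and 0 called by limma or voom (19 higher at an unadjusted p under 0.05 by limma). The mean was 0.11, 0.68 and 0.09 within numbers 1, 2 and 3. Vector replicate 2 stood apart, with the list at −0.58 against −0.10 and 0.10 in the other vector libraries and 0.00 to 0.19 in the 6 overexpression libraries, and without it the median was 0.10. MKI67, a marker of cycling cells, was at 33.2, 29.9 and 41.2 RPKM in the vector libraries and between 39.4 and 47.5 in the 6 others. Heat shock genes were above 0 in 15 of 16, with a median of 0.20 and means of 0.85, 0.06 and 0.18 within the numbers, 0 called by limma (8 higher at an unadjusted p under 0.05). Without vector replicate 1 the median was 0.07. HSPA6, an inducible HSP70 that was not in the list, was at 0.415, 0.307 and 0.265 RPKM in the vector libraries, 6.31, 0.782 and 0.972 under OTUB2, and 5.12, 0.950 and 0.894 under SNX29P2. The library numbered 1 was the highest in every group, by a far wider margin in both overexpression groups than in the vector. HSPA6 reached the 0.5 RPKM of the filter only in the overexpression libraries. Voom called 2 members of the heat shock list higher, among them DNAJB4, a co-chaperone at 4.31, 4.93 and 4.68 RPKM in the vector libraries and 6.33 to 9.43 in the 6 others. Proteasome genes were above 0 in 31 of 31 with a median of 0.10 and 0 called by limma or voom (11 higher at an unadjusted p under 0.05 by limma). Their mean was 0.12, 0.19 and 0.03 within numbers 1, 2 and 3, and 13 of the 31 were lower in number 3. The list stood at −0.08, −0.20 and 0.05 in the vector libraries and at −0.03 to 0.09 in the 6 others, so the groups overlapped.

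**Figure D3:**
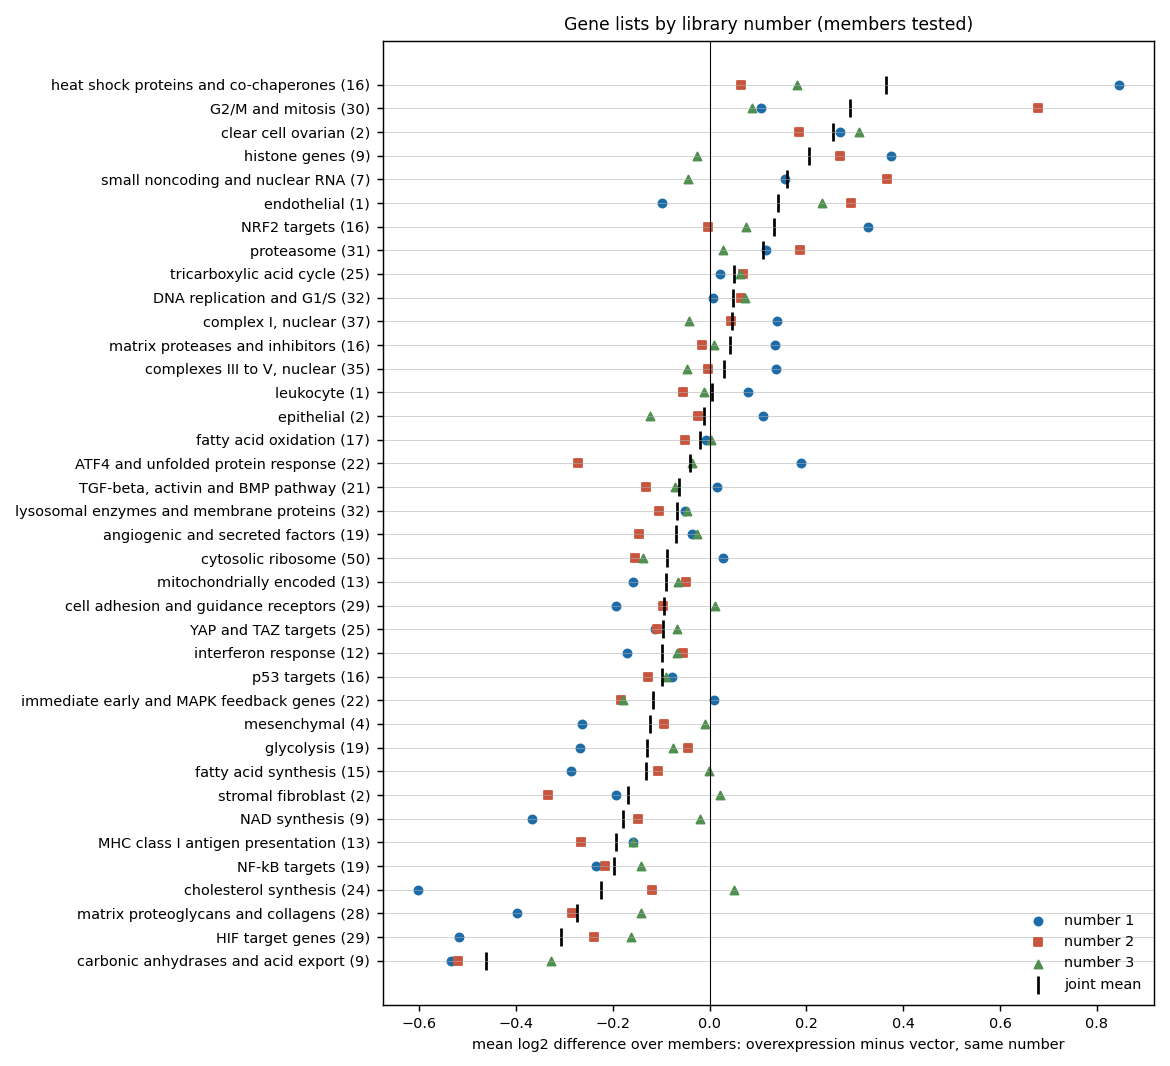
Mean log2 difference of each gene list between overexpression and vector libraries of the same number (horizontal axis), 1 point for each of the numbers 1, 2 and 3. Matrix proteoglycans and collagens lie at −0.40, −0.28 and −0.14, whereas G2/M genes lie at 0.11, 0.68 and 0.09 and cholesterol synthesis genes at −0.60, −0.12 and 0.05.

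Lists for lipid and mitochondrial metabolism held no gene called by limma. Cholesterol synthesis genes were below 0 in 21 of 24 with a median of −0.23, but the mean within the numbers was −0.60, −0.12 and 0.05, and limma called 0 of them (6 lower at an unadjusted p under 0.05). Vector replicate 1 was the high library, with the list's mean level at 0.58 above the mean of all libraries, and the other 8 lay between −0.14 and 0.00. Without that library the median was −0.03. Complex I subunits had a median of 0.05 (−0.02 without vector replicate 1) with 0 of 37 called, subunits of complexes III to V 0.03 (−0.01 at the lowest over the other settings) with 0 of 35, and tricarboxylic acid cycle genes 0.08 with 0 of 25. At an unadjusted p under 0.05, limma counted 4, 4 and 6 members higher in these lists and 0 lower, and voom called 0 in each. Over all genes tested, 7.62% were higher and 7.25% lower at that unadjusted p. Of 13 mitochondrially encoded mRNAs, 10 were below 0 with a median of −0.12, 0 called by limma, 6 lower at an unadjusted p under 0.05 and 3 called by voom. By comparison, 16 of 22 mitochondrial tRNA genes, of 59 to 75 bases, were above 0 with a median of 0.14, 0 called by limma and 6 called higher by voom. Lists that reflect RNA selection and quality had medians above 0 as well, and their part in these values was not tested. Histone genes were above 0 in 7 of 9 with a median of 0.22 and means of 0.37, 0.27 and −0.03 within the numbers. Small noncoding and nuclear RNAs were above 0 in 5 of 7 with a median of 0.05, which kept its sign in 17 of 20 other settings, and means of 0.16, 0.37 and −0.04. Limma and voom called 0 genes of either list (2 higher in each at an unadjusted p under 0.05 by limma). Cytosolic ribosomal protein genes were below 0 in 48 of 50 with a median of −0.09, 0 called by limma (15 lower at an unadjusted p under 0.05) and 1 by voom. In 14 of them all 6 overexpression libraries lay below the vector, against 404 (2.44%) of all genes tested. Number 1 went the other way, with a mean of 0.03 and 20 of 50 members lower, against −0.15 and −0.14 and 50 of 50 in numbers 2 and 3. RPL3 was at 464, 467 and 431 RPKM in the vector libraries and between 376 and 410 in the 6 others (−0.23, adjusted p = 0.105, limma). Of all 38 lists, 21 had a mean of the same sign within all 3 numbers and 17 did not.

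The number of calls depended on single libraries. With 1 library left out at a time, limma called 0 genes in 7 of 9 fits, with 1651 to 2264 genes at an unadjusted p under 0.05 and 34 to 90 called by voom in the same fits. Without vector replicate 1 it called 67 genes, 27 lower and 40 higher, and without vector replicate 3 it called 12. The direction of the 11 called genes was the same in all 32 fits made, and 9 of the 11 were called in each of the 9 voom fits with a library left out. The exceptions were JUNB, called in 4, and RP11-37C7.1, called in 1. All these fits reuse the libraries from which the 11 genes were chosen, so they are not separate support. Over the limma fits without 1 library, CA9 ranged from −4.22 to −3.74, BGN from −1.68 to −1.42 and IL24 from 0.90 to 1.16.

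**Figure D4:**
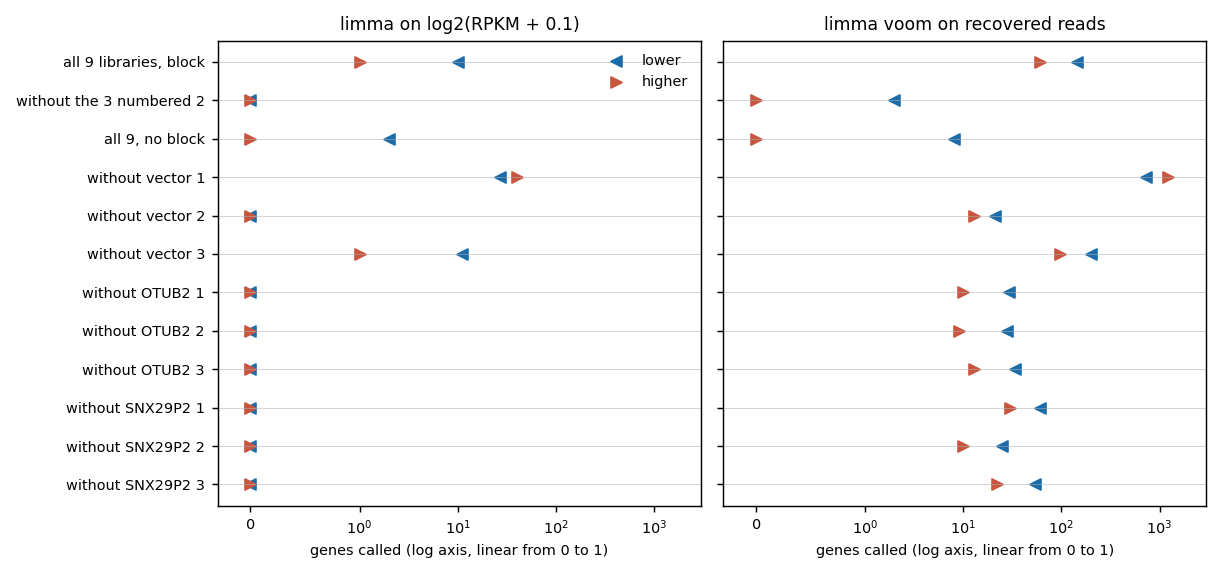
Number of genes called lower and higher in the joint contrast (horizontal axis) under each setting of the analysis (vertical axis). The limma fit with the block gives 10 lower and 1 higher, the fit without it 2 and 0, and limma voom on recovered reads 146 and 60.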

How the data were processed

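RNA of 3 vector, 3 OTUB2 and 3 SNX29P2 libraries was sequenced; total RNA was extracted with TRIzol, per the labels. The authors deposited 1 table with RPKM values, exon positions and lengths of 32997 genes. The submitters' processing notes name GRCh38. The sources used here give no aligner, counter, use of strand or annotation. Reads without molecular identifiers are not independent molecules, so counting limits depth only in part. RPKM times length gave whole reads for 100% of values below 1000 reads, within 0.05 reads.

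Tested genes reached 0.5 RPKM in 3 or more of the 9 libraries, on the scale log2(RPKM + 0.1), which understates changes of low genes. limma 3.58.1 (R 4.3.3) took all libraries, 3 groups, the library number as a block and a trended variance; the contrast was the mean of both overexpression groups minus vector. The block is part of how the comparison was defined. The second test was limma voom on the recovered reads. The members and the 38 lists (815 entries, 13 not matched) were chosen with earlier results of these data known. Named genes were CA9 and BGN, up to 15 called genes in each direction with a symbol and at least 1 RPKM in 1 group (filled to 10 by smallest p), and called or best list members. Other genes named (RP11-37C7.1, AC009133.22, SEZ6L2, HSPA6, DDIT4, KISS1, ABI3BP, TGFBI, PTGS2, ICAM1, RELB, LIF, EGR1, GRN, CTSB, AEBP1, TPP1) were chosen after their values were seen; genes named for shared exonic bases and cell type markers are outside the rule too. 25 names damaged into dates were left unnamed. Alternatives were pseudocounts of 1 and 0.01, no filter or 1 RPKM in 6 libraries, median-of-ratios and quantile scaling, a robust fit, no block, 1 overexpression level, fits without the libraries numbered 2 and without each library; the voom repeats, the threshold of 0.1 and the HIF list without CA9 were added after seeing the data. The programs were tested on simulated data. Figures came from matplotlib 3.10.9 under python 3.11.15 (numpy 2.4.6, pandas 2.3.3). Exon overlaps used the exon positions deposited with the RPKM values, and GENCODE 29 gave gene names and types where positions matched. Some items are not reported here.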

Additional observations from a re-analysis of the deposited data

Results flagged for a closer look

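Each of the 49 named genes was checked for a library far from the others among the 6 overexpression libraries, and 1 gene met the criterion. CDH5, the cadherin of endothelial cells, was at 20.5 RPKM in SNX29P2 replicate 2 and between 21.99 and 22.6 in the other overexpression libraries. Chance places about 5% of such groups beyond the criterion. The other endothelial markers PECAM1, VWF, KDR and TEK were at most 0.125, 0.00408, 0.328 and 0.0313 RPKM in any library. No named gene differed between the OTUB2 and SNX29P2 effects after adjustment (limma).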

How the results depend on the processing

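Pseudocounts of 1 and 0.01, median-of-ratios scaling and a robust variance kept 10 lower calls, and 2, 1, 2 and 1 higher. Lower and higher calls were 0 and 0 with no filter (3221 genes at an unadjusted p under 0.05), 13 and 5 with the stricter filter, 8 and 0 with quantile normalization, 15 and 4 with 1 overexpression level, 146 and 60 with voom, 47 and 24 at an adjusted p under 0.1, and 0 and 0 without the libraries numbered 2 (1209 unadjusted). Leaving out 1 library gave 0 to 27 lower and 0 to 40 higher. For voom, lower and higher calls were 2 and 0 without the libraries numbered 2, and 21 to 732 and 9 to 1216 with 1 library left out; the highest counts came without vector replicate 1. The cause was not tested.

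The labels do not say that a number pairs libraries. Deviations of same-numbered vector and overexpression libraries correlated at −0.02 and 0.05 for number 1, 0.15 to 0.19 for number 2 and 0.10 to 0.14 for number 3, against −0.23 to 0.05 between different numbers, and 7 of 9 libraries correlated best with their own number. Without the replicate block the calls were 2 and 0 (limma, 1502 unadjusted) and 8 and 0 (voom).

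2 genes near 0 changed sign in some fits. KRT18, at −0.01, ranged from −0.076 (without vector replicate 1) to 0.048 (without vector replicate 3). CD68, at 0.00, was at −0.0035 with median-of-ratios and −0.019 with quantile scaling, and ranged from −0.033 (without vector replicate 1) to 0.034 (without vector replicate 2). With 3 vector libraries, differences under about 1.15-fold were within the interval of a typical gene.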
